A study of Mus musculus with 12 samples.

Results

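The 10 genes described here encode regulators and outputs of the mTORC1 nutrient-sensing pathway and its transcription factor TFEB. They are the 3 sestrins (Sesn1, Sesn2, Sesn3), the mTORC1 inhibitors Ddit4 and Deptor, the lysosomal GTPases Rragc and Rragd with their regulator Flcn, the translation repressor Eif4ebp1, and Tfeb. They were chosen by name, as known members of the pathway, from 25117 gene symbols. All 10 were in the data and all 10 passed the filter on low values.

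Polyadenylated RNA had been sequenced from mouse embryonic fibroblasts. All libraries came from cells with both Rbbp5 alleles floxed and with Cre recombinase at both Rosa26 alleles. Tamoxifen for 7 days gave the cells called KO, and cells called wildtype had none, so loss of Rbbp5 and any effect of tamoxifen or Cre activity cannot be told apart. RBBP5 is a core subunit of the complexes that methylate histone H3 at lysine 4. Each kind of cell was then kept for 16 hours in EBSS, a salt solution with glucose but without amino acids or serum, or in full DMEM with 10% serum. The 4 groups were KO in EBSS, wildtype in EBSS, KO in full medium and wildtype in full medium, with 3 libraries each. The titles mark the libraries of a group as brep 1 to 3, without saying whether these were separate cultures, so p-values measure only the spread between these libraries.

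mTORC1 is a kinase complex on the lysosomal surface that drives growth and protein synthesis when amino acids and growth factors are present. Amino acids act through the Rag GTPases, which bring mTORC1 to the lysosome, while sestrins hold the Rags back when leucine is scarce. Active mTORC1 phosphorylates the protein products of Eif4ebp1 and Tfeb, which releases translation and keeps TFEB out of the nucleus. None of these phosphorylations is measured by RNA.

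Values were TPM, a relative abundance per transcript length, in which depth is not kept. As deposited, Rbbp5 itself went against the labels in EBSS. It stood at 7.47, 9.34 and 8.31 TPM in KO cells, against 26.2, 25.7 and 26.2 TPM in wildtype cells, in full medium. In EBSS its TPM was 31.9, 24.6 and 23.0 under the KO label, against 12.4, 14 and 11.8 TPM under the wildtype label. Both EBSS groups are therefore named by their labels only. No direction drawn from them can be assigned to a genotype or, against full medium, to the medium alone. The libraries labelled wildtype, EBSS also differed in make-up. The share of ribosomal protein genes was 32.2% to 34.7% there and 14.8% to 18.5% in the 9 other libraries, while the median tested gene had 10.1 to 10.5 TPM there and 17.5 to 23.0 TPM elsewhere. That group's replicate 3 had 1122 of the 12653 tested genes at 0, against 12 to 229 in the other libraries. Changes are therefore given as deposited and after median-of-ratios scaling, which sets the typical gene level between libraries. After that scaling, Rbbp5 in EBSS stood at 25.15, 20.69 and 19.54 under the KO label, against 20.9, 22.25 and 18.42 under the wildtype label. It was not called between the labels then (limma log2 change 0.08, adjusted p = 0.56). Its scaled means in full medium were 7.66 in KO cells and 20.95 in wildtype cells. With this scaling, Rbbp5 thus showed no loss under either EBSS label. That reading rests on the scaling. As deposited, the log2 change of Rbbp5 from full medium to EBSS under the wildtype label was −0.98, near the −0.94 of the median gene. Between the EBSS labels, Rbbp5 was still called higher under the KO label in 20 of 22 alternative settings, this scaling being among the 22. Of the marker lists checked, the 10 fibroblast markers summed to 4210 to 7350 TPM over all libraries. In full medium 7 of the 10 were called lower in KO than in wildtype cells, against 35.8% of all tested genes. The 6 skeletal muscle markers summed to 53 to 66.1 TPM in KO cells, against 1.77 to 2.17 TPM in wildtype cells, in full medium. That sum was led by Acta1, which averaged 51.7 TPM in KO cells and 0.752 TPM in wildtype cells. Myod1 and Ckm were at 0 in all wildtype libraries there. In the KO libraries they were near 0 as well, at no more than 0.0428 and 0.0982 TPM. The 5 epithelial markers summed to 243 to 278 TPM in KO cells, against 158 to 172 TPM in wildtype cells, a sum led by Krt19, which averaged 254 TPM in KO cells and 162 TPM in wildtype cells. The 6 macrophage markers summed to 63.8 to 68.7 TPM in KO cells, against 28.6 to 29.7 TPM in wildtype cells, and moved in opposite directions, with Cd68 at means of 58.5 TPM in KO cells and 16.3 TPM in wildtype cells, and Cd14 at 3.45 TPM in KO cells and 11.9 TPM in wildtype cells. The 5 neural markers summed to 75.6 to 84.8 TPM in KO cells, against 150 to 163 TPM in wildtype cells, in full medium. That sum was led by Nes, at means of 52.2 TPM in KO cells and 137 TPM in wildtype cells. Tubb3 and Map2 of that list were higher in each KO library than in any wildtype library there. The 5 endothelial markers summed to 0.894 to 1.11 TPM in KO cells, against 3.32 to 3.57 TPM in wildtype cells. Fewer cells of a type and less RNA per cell cannot be told apart in such bulk libraries, and the part of these markers in the changes below was not tested.

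**Figure D1:**
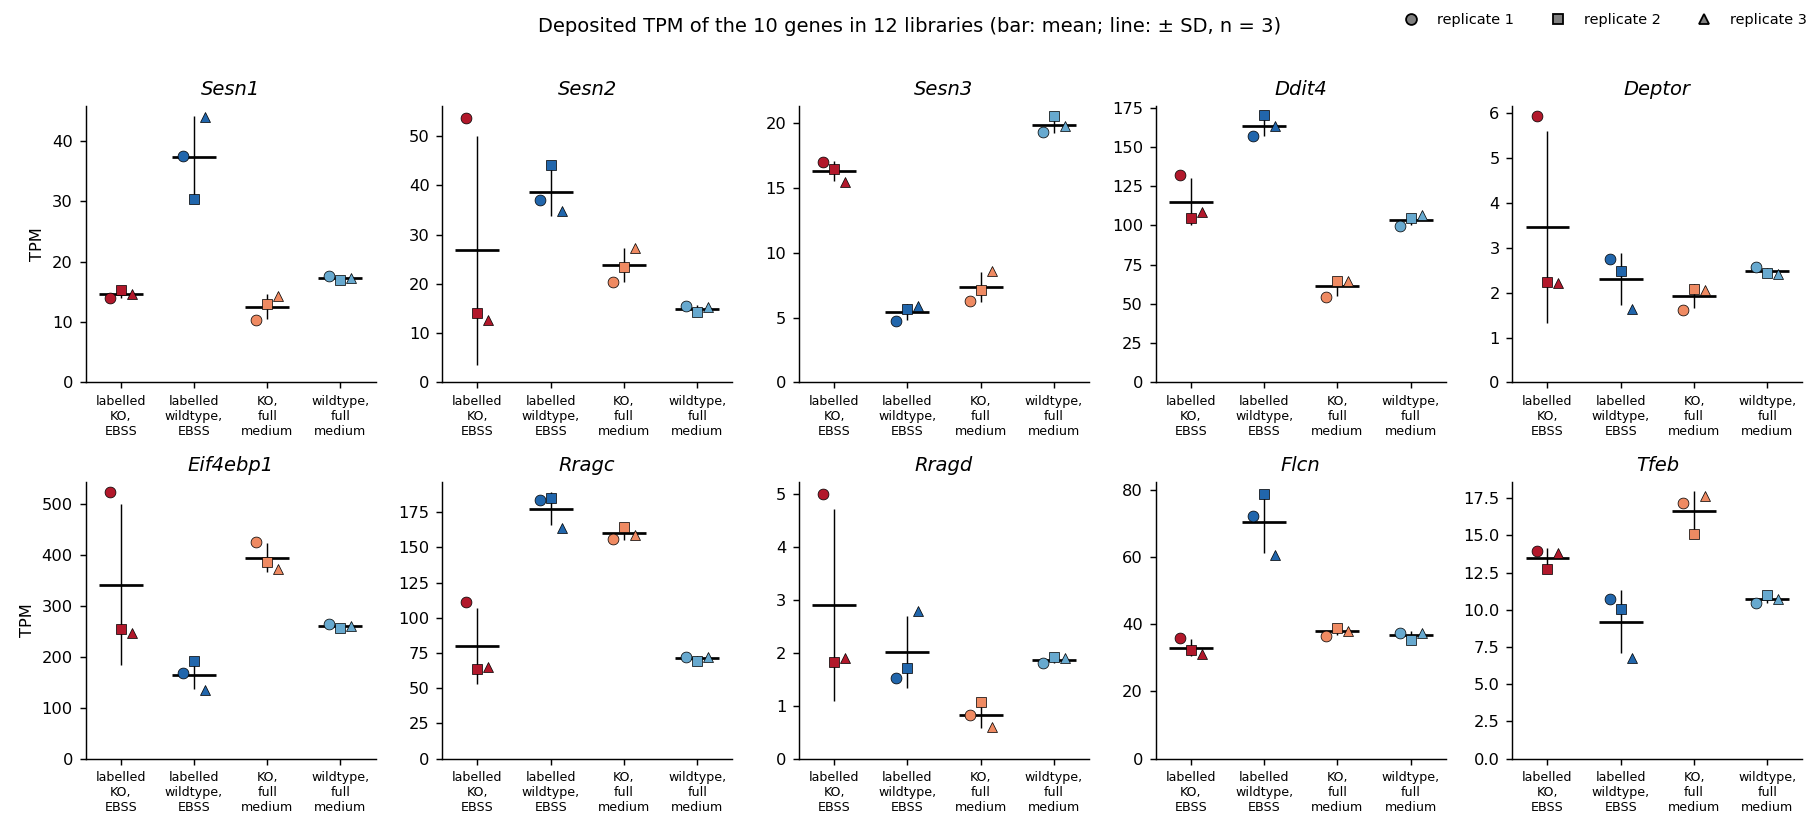
Deposited TPM of each of the 10 genes by group. Points are the 3 libraries, with a symbol for each replicate number, the bar is the mean and the line is ± SD. Sesn3 is low in KO full medium and in the libraries labelled wildtype, EBSS, and replicate 1 of the group labelled KO, EBSS stands above the other libraries of that group for Sesn2, Deptor, Eif4ebp1, Rragc and Rragd.

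The first comparison asks how the pathway's RNAs differ with loss of Rbbp5 in fed cells, and it rests on groups in which Rbbp5 follows the labels. Each change is a limma estimate on a log2(TPM + 1) scale, on which changes of low genes come out too small, and each adjusted p is by the Benjamini-Hochberg method over 12653 genes. KO cells had less Sesn3 and Ddit4 and more Rragc and Tfeb than wildtype cells, while Flcn stood at about the same level in both. The median of all tested genes lay at −0.17 in this comparison.

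The 3 sestrins did not move together. Sesn3 stood at 6.30, 7.14 and 8.61 TPM in KO cells, against 19.3, 20.5 and 19.8 TPM in wildtype cells. The groups did not overlap, and Sesn3 fell by 1.33 ± 0.13 (SE) on the log2 scale, with an adjusted p of 6.3e-06, or by 1.16 relative to the median gene. Sesn3 (ENSMUSG00000032009.8, chromosome 9 from 14275067 to 14333101 on GRCm38) encodes a sestrin known as a target of FoxO factors. Sesn1 (ENSMUSG00000038332.13, chromosome 10 from 41809935 to 41908424), a target of p53 and FoxO factors, had 10.3, 13 and 14.4 TPM in KO cells, against 17.6, 17 and 17.3 TPM in wildtype cells. Its log2 change of −0.44 ± 0.15 passed as deposited (adjusted p = 0.023) but not after median-of-ratios scaling, where it was −0.26 (adjusted p = 0.12). Without any one of the 3 wildtype libraries, or without KO replicate 1, its adjusted p lay between 0.053 and 0.09. Sesn2 (ENSMUSG00000028893.8, chromosome 4 from 132492032 to 132510501) encodes the leucine sensor of the family and is a known target of the stress factor ATF4. It stood at 20.5, 23.5 and 27.4 TPM in KO cells, against 15.5, 14.2 and 15.3 TPM in wildtype cells. The groups did not overlap, yet the log2 change of 0.62 ± 0.41 did not pass (adjusted p = 0.21). The spread of Sesn2 in this fit is shared with an EBSS library that stood apart, replicate 1 labelled KO, and without that library the same change had an adjusted p of 0.0015.

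Because shares within one library do not depend on scaling between libraries, the make-up of sestrin RNA was set out library by library. Sesn3 made up 16.8% ± 0.44 of the summed sestrin TPM in KO cells and 38.1% ± 1.47 in wildtype cells (SD, n = 3 each). The share of Sesn2 was 54.5% ± 0.67 in KO cells and 28.8% ± 1.12 in wildtype cells. Sesn1 held 28.7% ± 1.01 in KO cells and 33.2% ± 0.38 in wildtype cells. None of these 3 shares overlapped between the groups, though an exact permutation test of 3 against 3 libraries cannot go below p = 0.1. The leading sestrin was Sesn2 in each KO library and Sesn3 in each wildtype library. The summed level was 37.1 to 50.4 TPM in KO cells and 51.7 to 52.4 TPM in wildtype cells.

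**Figure D2:**
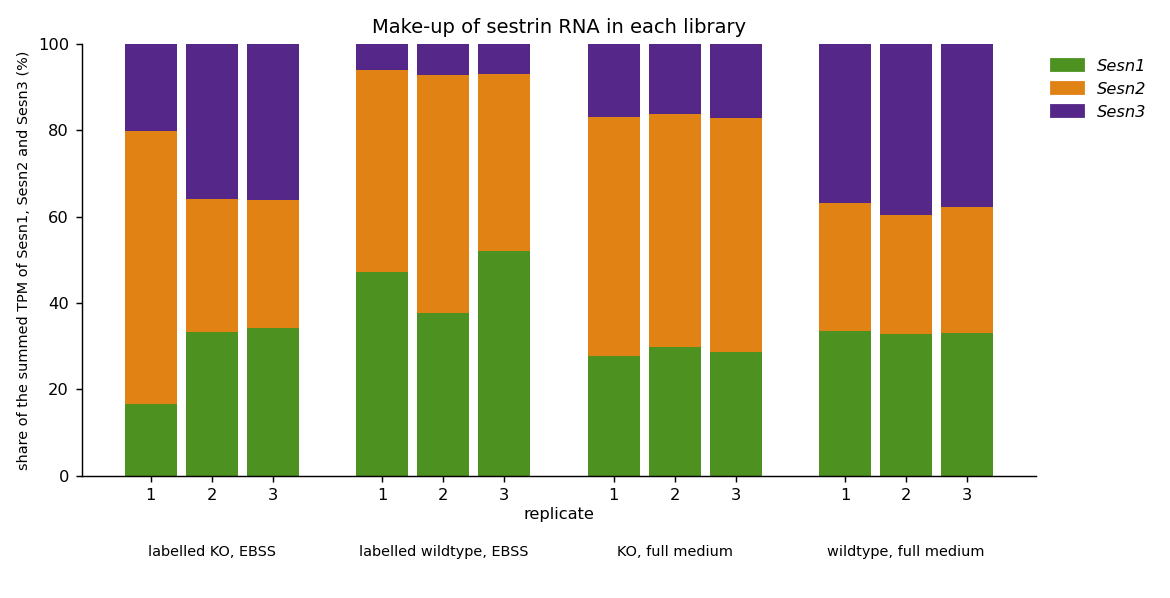
Share of each sestrin in the summed TPM of Sesn1, Sesn2 and Sesn3, in percent, for each of the 12 libraries. Sesn3 holds 16.3% to 17.1% in KO full medium and 36.8% to 39.7% in wildtype full medium, and 6% to 7.08% in the libraries labelled wildtype, EBSS.

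Of the other inhibitors, Ddit4 fell. It encodes REDD1, a stress-induced protein that restrains mTORC1 through the TSC1-TSC2 complex, and lies on chromosome 10 from 59949669 to 59951834 (ENSMUSG00000020108.4). It stood at 54.4, 64.6 and 64.7 TPM in KO cells, against 99.6, 105 and 107 TPM in wildtype cells. The groups were well apart, and the log2 change was −0.75 ± 0.10 (adjusted p = 7.6e-05), or −0.59 relative to the median gene. Deptor (ENSMUSG00000022419.16, chromosome 15 from 55112317 to 55259271) encodes a protein that binds and inhibits mTOR and was among the lowest of the 10 genes. Its 1.61, 2.09 and 2.05 TPM in KO cells lay below the 2.57, 2.44 and 2.42 TPM in wildtype cells, and the log2 change of −0.26 ± 0.26 did not pass (adjusted p = 0.44).

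Rragc and Rragd encode RagC and RagD, alternative partners of RagA or RagB in the GTPase pair that binds mTORC1 at the lysosome. Rragc (ENSMUSG00000028646.16, chromosome 4 from 123917446 to 123936997) stood at 156, 165 and 159 TPM in KO cells, against 72.1, 69.4 and 71.9 TPM in wildtype cells. It rose by a log2 change of 1.16 ± 0.17 (adjusted p = 0.00015), or 1.32 relative to the median gene. Rragd (ENSMUSG00000028278.14, chromosome 4 from 32983037 to 33022180) was low throughout, at 0.824, 1.08 and 0.590 TPM in KO cells, against 1.80, 1.91 and 1.89 TPM in wildtype cells. The groups did not overlap, but the log2 change of −0.66 ± 0.27 did not pass (adjusted p = 0.057). Without replicate 1 labelled KO, EBSS it did (adjusted p = 0.0055), as it did without replicate 3 labelled wildtype, EBSS (adjusted p = 0.034). Rragd thus held 0.515% ± 0.139 of the summed TPM of both genes in KO cells and 2.56% ± 0.13 in wildtype cells (SD, n = 3 each). Flcn (ENSMUSG00000032633.12, chromosome 11 from 59791408 to 59810016) encodes folliculin, which with its partners FNIP1 and FNIP2 acts on RagC and RagD. It stood at 36.6, 38.9 and 38.1 TPM in KO cells, against 37.5, 35.3 and 37.5 TPM in wildtype cells. These overlapped, and the log2 change was 0.04 ± 0.10 (adjusted p = 0.75).

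Eif4ebp1 encodes the eIF4E-binding protein that blocks cap-dependent translation until mTORC1 phosphorylates it. It was the most abundant of the 10 genes in both full-medium groups and lies on chromosome 8 from 27260329 to 27276674 (ENSMUSG00000031490.6). It stood at 426, 386 and 373 TPM in KO cells, against 264, 256 and 261 TPM in wildtype cells. The groups did not overlap, and the log2 change of 0.60 ± 0.24 missed the threshold as deposited (adjusted p = 0.052). After median-of-ratios scaling it was 0.78 (adjusted p = 0.015), and without replicate 1 labelled KO, EBSS the adjusted p was 9e-04. Tfeb (ENSMUSG00000023990.18, chromosome 17 from 47737030 to 47792419) encodes a transcription factor for lysosomal and autophagy genes. It had 17.2, 15.1 and 17.6 TPM in KO cells, against 10.4, 11 and 10.8 TPM in wildtype cells. Tfeb rose by a log2 change of 0.59 ± 0.15 (adjusted p = 0.0059), or 0.75 relative to the median gene. Its relative Tfe3, which shares its targets, fell by 0.60 (adjusted p = 0.00054), to a mean of 45.8 TPM in KO cells, against 70.1 TPM in wildtype cells. Tfeb therefore made up 25.4% ± 1.84 of the summed TPM of Tfeb, Tfe3, Mitf and Tfec in KO cells and 12.9% ± 0.40 in wildtype cells (SD, n = 3 each), with no overlap.

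Of the 10 genes, 5 passed in this comparison, 2 higher and 3 lower, while 55.9% of all tested genes passed, 20.1% higher and 35.8% lower. The share of the 10 genes is thus near that of all genes. After scaling 5 passed as well, 3 higher and 2 lower, while 53.7% of all genes passed, 26.8% higher and 27% lower. The groups did not overlap for 9 of the 10 genes, against 80.2% of all genes. Without replicate 1 labelled KO, EBSS, 8 of the 10 passed, 4 in each direction, against 60.5% of all genes. In a fit on only the 6 full-medium libraries 9 passed, all but Flcn, as did 9679 of the 12653 tested genes.

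The rest of the pathway was divided in KO cells in full medium, where 20.1% of all tested genes rose and 35.8% fell. Of the 8 subunits of mTORC1 and mTORC2, 1 rose and 4 fell, with a median log2 change of −0.55. The 3 largest changes were in parts of mTORC2, with Rictor at a mean of 8.38 TPM in KO cells, against 30.4 TPM in wildtype cells (log2 change −1.76, adjusted p = 3.7e-05). Prr5l fell by 1.08 (adjusted p = 0.00074) and Prr5 by 0.94 (adjusted p = 4.5e-05). Of 24 genes of the amino acid sensing machinery, 8 rose and 6 fell, and 8 and 3 after scaling. Lamtor5 and Lamtor2, parts of the Ragulator complex that anchors the Rags, rose by 1.01 (adjusted p = 0.01) and 0.90 (adjusted p = 6.4e-06). The gene of the arginine sensor relative Castor2 fell by 1.25 (adjusted p = 0.0023). In the Rheb and TSC branch, which carries growth factor signals, 4 of 10 rose and 3 fell, and 5 and 2 after scaling. Tsc2, which encodes the GTPase-activating subunit of the TSC complex, stood at a mean of 61.4 TPM in KO cells, against 41.0 TPM in wildtype cells (log2 change 0.57, adjusted p = 0.0016). Tbc1d7, which encodes another subunit of it, rose by 0.80 (adjusted p = 0.02), a call lost without wildtype replicate 1 or 3 or KO replicate 3 (adjusted p = 0.051 to 0.056). Among 13 translation outputs 2 rose and 5 fell as deposited, and 3 and 2 after scaling, with the repressor gene Eif4ebp3 higher by 0.84 (adjusted p = 0.0021) and Eif4b, which encodes an initiation factor, lower by 0.55 (adjusted p = 0.00069).

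Of 32 tested lysosomal and autophagy genes known as TFEB targets, 15 rose and 7 fell, and 18 and 5 after scaling, with a median log2 change of 0.20 as deposited. Over all tested genes 20.1% rose and 35.8% fell. Neu1, which encodes a lysosomal sialidase, stood at a mean of 68.4 TPM in KO cells, against 22.8 TPM in wildtype cells (log2 change 1.54, adjusted p = 6.5e-07). Atp6v0d1, a subunit gene of the proton pump, rose by 1.51 (adjusted p = 8.6e-05). Ppargc1a, a coactivator gene for mitochondrial biogenesis kept in the same list, rose by 1.76 (adjusted p = 1.4e-05), at means of 5.36 TPM in KO cells and 0.867 TPM in wildtype cells. Other genes of the list were lower. Ctsb stood at 330.2, 326.9 and 333.5 TPM in KO cells, against 586.3, 579.9 and 571 TPM in wildtype cells. Sqstm1 stood at 383.6, 385.6 and 374.4 TPM in KO cells, against 515.9, 545.4 and 495.7 TPM in wildtype cells. Both were picked after their values were seen.

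The genes of 4 branches known to act on the sestrins and Ddit4 are set out next, beside 55.9% of all tested genes called, 20.1% higher and 35.8% lower. Of 8 p53 branch genes, 4 rose and 2 fell, among them Cdkn1a, the cell cycle inhibitor gene, with a log2 change of 1.06 (adjusted p = 6.7e-05). Ccng1 rose by 0.85 (adjusted p = 0.00031) and the apoptosis gene Bax by 0.74 (adjusted p = 0.0014). Mdm2 was lower, at 128, 152 and 139 TPM in KO cells, against 207, 207 and 215 TPM in wildtype cells. So was Btg2, at 17, 20.3 and 19.6 TPM in KO cells, against 29.0, 30.4 and 29.8 TPM in wildtype cells. As deposited, Sesn1 was called lower as well. Of 10 FoxO branch genes, 1 rose and 5 fell. Bcl6 fell by 1.62 (adjusted p = 2.8e-06), Ccng2 by 0.71 (adjusted p = 0.0018) and Insr by 0.71 (adjusted p = 0.00072), and Sesn3 fell too. Foxo1 itself was higher, at means of 18.35 TPM in KO cells and 11.26 TPM in wildtype cells. Irs2 averaged 13.02 TPM in KO cells and 12.56 TPM in wildtype cells, and its libraries overlapped. So did those of Txnip, at means of 50.08 TPM in KO cells and 47.28 TPM in wildtype cells. The part of FoxO factors in the fall of Sesn3 was not tested. Of 8 genes of the hypoxia and glucocorticoid branch, 0 rose and 2 fell. These were Vegfa, the angiogenic growth factor gene, at −1.95 (adjusted p = 2.4e-07), and Hif1a at −1.13 (adjusted p = 0.00036). Of 8 ATF4 branch genes, limma called 0 in the fit on all libraries, and 1 had an unadjusted p under 0.05. Without replicate 1 labelled KO, EBSS all 8 were called, 4 higher and 4 lower, against 60.5% of all genes. Ddit3, which encodes the stress factor CHOP, stood at 464, 428 and 405 TPM in KO cells, against 186, 172 and 157 TPM in wildtype cells, while Slc7a11, the cystine transporter gene, stood at 0.462, 0.506 and 0.589 TPM in KO cells, against 1.83, 1.75 and 1.79 TPM in wildtype cells. Ddit3 and Slc7a11 were chosen after their values were seen.

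**Figure D3:**
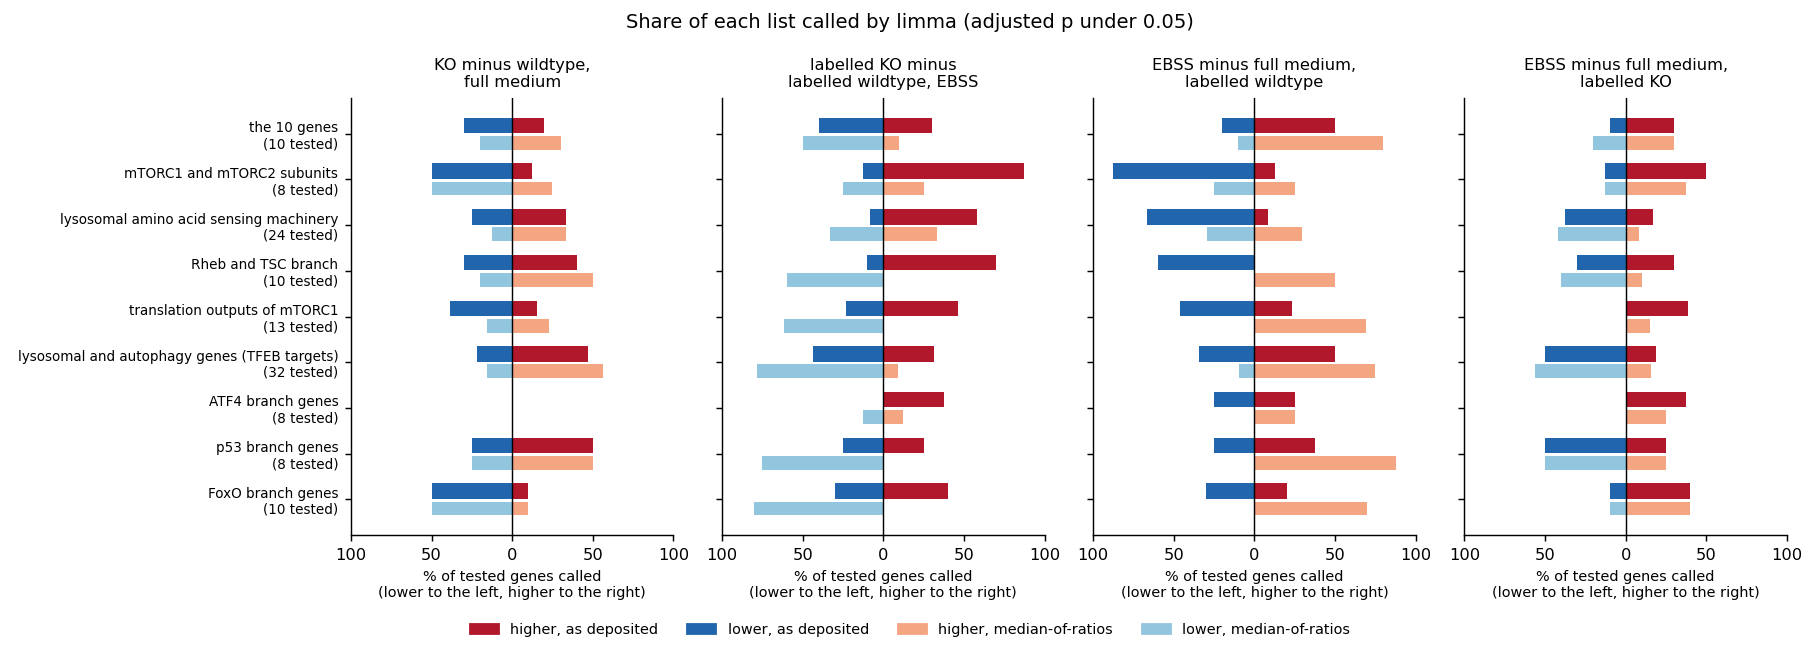
Percent of the tested genes of each list that limma called in the comparison named above the panel, with higher calls to the right and lower calls to the left. Dark bars are TPM as deposited and light bars are after median-of-ratios scaling. In KO minus wildtype, full medium, 15 of 32 TFEB targets are higher and 7 lower, and 0 of 8 ATF4 branch genes are called.

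The next comparison sets EBSS against full medium in the libraries labelled wildtype. Because the EBSS labels are in doubt, medium and genotype cannot be told apart in it. The same holds for the later comparison of the media in the libraries labelled KO. Sesn1, Sesn2, Ddit4, Rragc and Flcn were higher in EBSS and Sesn3 was lower, both as deposited and after scaling. Most genes read lower in these libraries as deposited, with the median of all genes at −0.94. After median-of-ratios scaling that median was −0.10. Markers of cell types moved too. Of 10 fibroblast markers 7 were called lower as deposited, as were 71.8% of all tested genes. After scaling 2 were higher and 5 lower, while 30.3% of all genes were higher and 35.7% lower. Dcn stood at a mean of 1.37 TPM in EBSS, against 157 TPM in full medium, and Col3a1 at 23.3 TPM in EBSS, against 606 TPM in full medium. EBSS replicate 3 held 48.4 TPM of the macrophage marker Lyz2, against 2.22 and 2.93 TPM in replicates 1 and 2, and the 6 macrophage markers summed to 21.7 to 83.8 TPM in EBSS, against 28.6 to 29.7 TPM in full medium. The part of these markers in the changes of the 10 genes was not tested.

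Among the sestrins, Sesn1 and Sesn2 rose and Sesn3 fell. Sesn1 stood at 37.6, 30.3 and 44.0 TPM in EBSS, against 17.6, 17 and 17.3 TPM in full medium. Its log2 change was 1.05 ± 0.15 as deposited (adjusted p = 4e-05) and 2.02 after scaling (adjusted p = 3.5e-07). Sesn2 stood at 37.0, 44.2 and 34.8 TPM in EBSS, against 15.5, 14.2 and 15.3 TPM in full medium. These lay far apart, with a log2 change of 1.3 ± 0.41 as deposited (adjusted p = 0.011) and 2.27 after scaling (adjusted p = 0.00037). Sesn3 stood at 4.76, 5.68 and 5.87 TPM in EBSS, against 19.3, 20.5 and 19.8 TPM in full medium. It fell by 1.70 ± 0.13 as deposited (adjusted p = 2.8e-07) and by 0.81 after scaling (adjusted p = 5.7e-05). The share of Sesn3 in sestrin RNA was 6.67% ± 0.59 in EBSS and 38.1% ± 1.47 in full medium (SD, n = 3 each). That share fell while the summed sestrin level was 79.3 to 84.6 TPM in EBSS, against 51.7 to 52.4 TPM in full medium.

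Ddit4 stood at 157, 170 and 163 TPM in EBSS, against 99.6, 105 and 107 TPM in full medium, a log2 change of 0.65 ± 0.10 (adjusted p = 8.7e-05; 1.65 after scaling). Rragc stood at 183, 185 and 164 TPM in EBSS, against 72.1, 69.4 and 71.9 TPM in full medium, a log2 change of 1.31 ± 0.17 (adjusted p = 2.2e-05; 2.30 after scaling). Flcn, level with wildtype in KO cells in full medium, stood at 72.2, 78.7 and 60.4 TPM in EBSS, against 37.5, 35.3 and 37.5 TPM in full medium. Its log2 change was 0.91 ± 0.10 (adjusted p = 6.9e-06; 1.90 after scaling). Both genes are known in other work as TFEB targets, and in each the lowest EBSS library lay above the highest library in full medium.

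For the remaining members the scaling decided the call or its direction. Eif4ebp1 stood at 168, 192 and 135 TPM in EBSS, against 264, 256 and 261 TPM in full medium. It fell by 0.67 ± 0.24 as deposited (adjusted p = 0.022), but its change was 0.33 after scaling (adjusted p = 0.24), and without EBSS replicate 3 the deposited value gave an adjusted p of 0.074. Without replicate 1 in full medium that was 0.051. Tfeb stood at 10.8, 10.1 and 6.78 TPM in EBSS, against 10.4, 11 and 10.8 TPM in full medium. Its log2 change was −0.22 ± 0.15 as deposited (adjusted p = 0.18) and 0.69 after scaling (adjusted p = 0.0037). Deptor had 2.75, 2.50 and 1.64 TPM in EBSS, against 2.57, 2.44 and 2.42 TPM in full medium (log2 change −0.09, adjusted p = 0.76; 0.63 after scaling, adjusted p = 0.048). Rragd had 1.53, 1.72 and 2.79 TPM in EBSS, against 1.80, 1.91 and 1.89 TPM in full medium (log2 change 0.05, adjusted p = 0.87; 0.73 after scaling, adjusted p = 0.026). Both low genes overlapped between the media.

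Of the 10 genes, 7 passed as deposited, 5 higher and 2 lower, while 81.1% of all tested genes passed, 9.25% higher and 71.8% lower. After scaling 9 passed, 8 higher and 1 lower, while 66.1% of all genes passed, 30.3% higher and 35.7% lower. The groups did not overlap for 7 of the 10 genes, against 84.1% of all genes.

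**Figure D4:**
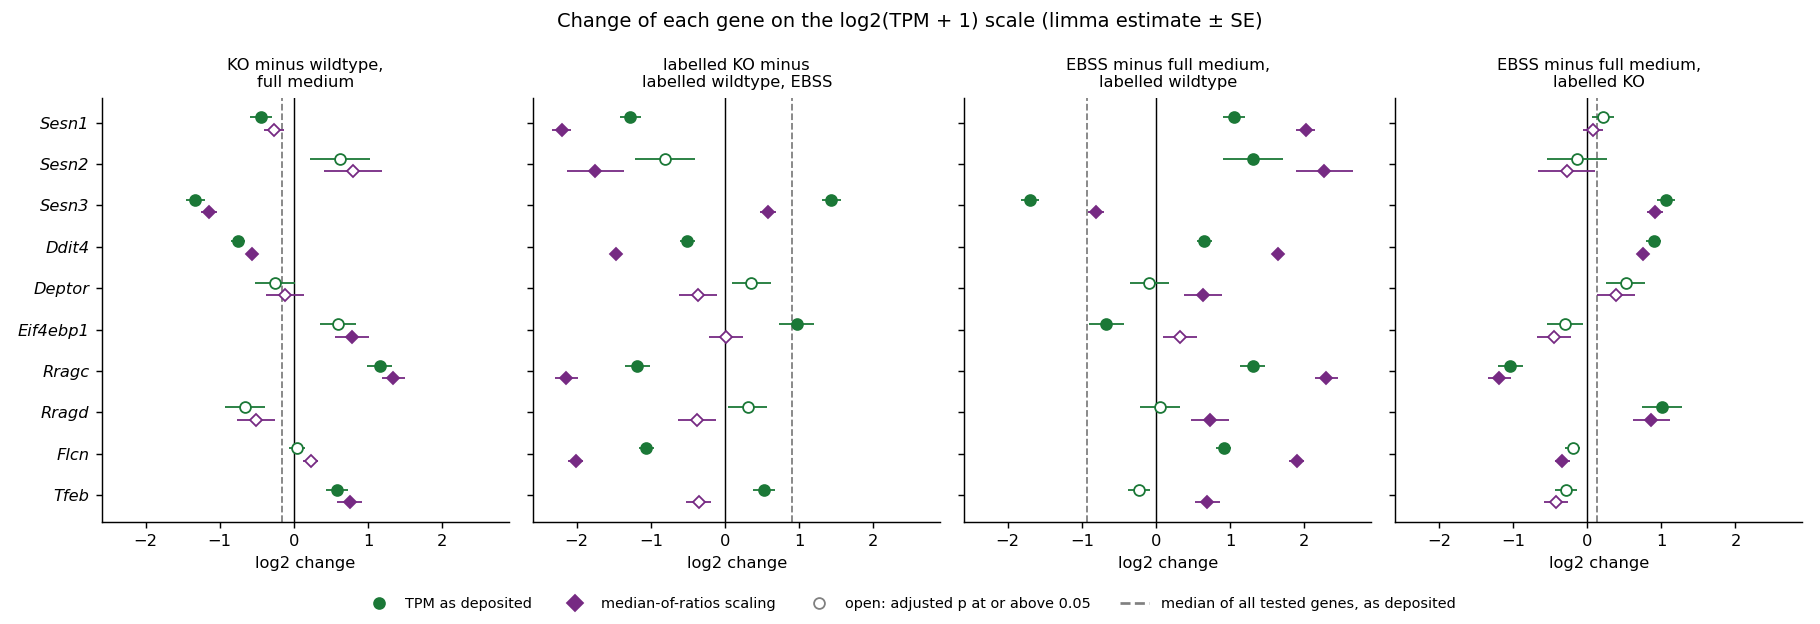
Log2 change of each of the 10 genes in 4 comparisons, as limma estimates ± SE on the log2(TPM + 1) scale. Filled symbols passed an adjusted p of 0.05, circles are TPM as deposited, diamonds are after median-of-ratios scaling, and the dashed line is the median of all tested genes as deposited, at −0.94 for EBSS minus full medium in the libraries labelled wildtype.

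The stretches of DNA before the starts of Rragc and Flcn are shown. These are the members of the Rag branch that were called higher in EBSS here both as deposited and after scaling. Rragd was called higher only after scaling. RefSeq (GRCm38.p6) gave windows of 300 bases, 250 before and 50 after a transcript start, for 8 of the 10 genes, all but Deptor and Eif4ebp1, with 11 windows in all. Each window was searched on both strands for 5 motifs. These were the E-box core CACGTG, the longer TCACGTG of TFEB-type sites, which contains it, the cAMP response palindrome TGACGTCA, the ATF4-type composite TGATGNAA and the FoxO-type core TGTTTAC. The 250 bases before the start are printed, 5′ to 3′ on the strand of the gene, with matches in capitals. Rragc is on the plus strand at chr4:123917183-123917432, with an E-box 112 bases before the start that is also TCACGTG on the other strand. Flcn is on the minus strand at chr11:59810040-59810289, with TGACGTCA 49 bases before the start.
Rragc: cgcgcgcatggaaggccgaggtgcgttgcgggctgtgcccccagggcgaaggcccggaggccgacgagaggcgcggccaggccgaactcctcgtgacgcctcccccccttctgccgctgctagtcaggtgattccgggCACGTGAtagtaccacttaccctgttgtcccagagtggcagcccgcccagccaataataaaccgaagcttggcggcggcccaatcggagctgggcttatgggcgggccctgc
Flcn: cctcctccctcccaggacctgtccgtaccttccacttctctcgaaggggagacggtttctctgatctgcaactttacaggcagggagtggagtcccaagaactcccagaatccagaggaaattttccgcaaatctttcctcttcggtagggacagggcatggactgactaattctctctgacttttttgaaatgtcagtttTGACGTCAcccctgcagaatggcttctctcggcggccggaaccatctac
CACGTG was in 7.15% of 32851 RefSeq windows, TCACGTG in 3.77% and TGACGTCA in 1.79%. TGTTTAC, in 3.65% of windows, occurred in 1 member window, of Sesn1, from base 23 after the start. TGATGNAA, in 3.97% of windows, was in none of the 11. The window of Rragd held none of the motifs searched. A match describes these letters only, and the absence of one says nothing about a factor.

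Around these genes, the pathway in the libraries labelled wildtype was mostly lower in EBSS as deposited, as were most genes. Over all tested genes 9.25% were higher and 71.8% lower as deposited, and 30.3% and 35.7% after scaling. Of 8 mTORC1 and mTORC2 subunits, 1 was higher and 7 lower as deposited, and 2 and 2 after scaling. The higher one was Akt1s1, which encodes the mTORC1 inhibitor PRAS40, at a mean of 251 TPM in EBSS, against 92.5 TPM in full medium (log2 change 1.43, adjusted p = 2e-05). Mlst8, a subunit gene of both complexes, fell by 1.87 (adjusted p = 1.4e-07). Of 24 sensing machinery genes, 2 were higher and 16 lower as deposited, and 7 and 7 after scaling. Mios and Seh1l, parts of GATOR2, to which sestrins bind, fell by 3.08 (adjusted p = 9.8e-07) and 1.90 (adjusted p = 1.3e-08), and both also fell after scaling, by 2.35 and 0.92. Depdc5, the GATOR1 subunit gene, fell by 1.87 (adjusted p = 1.5e-06). Of 10 genes of the Rheb and TSC branch, 0 were higher and 6 lower as deposited, against 5 and 0 after scaling. Of 13 translation outputs, 3 were higher and 6 lower as deposited, against 9 and 0 after scaling. Eif4ebp3 rose by 1.11 (adjusted p = 0.00013), and held 16.0% ± 1.96 of the summed TPM of the 3 Eif4ebp genes in EBSS and 4.85% ± 0.74 in full medium (SD, n = 3 each).

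Of 32 TFEB targets, 16 were higher and 11 lower as deposited, and 24 and 3 after scaling. For these and the lists below, the shares over all tested genes were 9.25% higher and 71.8% lower as deposited. After scaling they were 30.3% and 35.7%. As deposited the 3 largest changes were falls in genes of lysosomal hydrolases. Sgsh, at −2.53 (adjusted p = 3.1e-06), Naglu, at −2.30 (adjusted p = 1.5e-07), and Glb1, at −2.29 (adjusted p = 3.8e-06), fell after scaling as well, by 1.83, 1.45 and 1.32. After scaling the largest changes were rises, of the hydrolase gene Gla at 2.92 (1.94 as deposited) and the autophagy gene Uvrag at 2.79 (1.82 as deposited), both picked after their values were seen. Tfe3 was called in opposite directions, at −0.51 as deposited (adjusted p = 0.00085) and 0.48 after scaling (adjusted p = 0.0012). Of 8 ATF4 branch genes, 2 were higher and 2 lower as deposited, and 2 and 0 after scaling. Ddit3 stood at 557, 664 and 653 TPM in EBSS, against 186, 172 and 157 TPM in full medium (log2 change 1.86, adjusted p = 0.024). That call was lost without a filter on low values, without replicate 2 or 3 in full medium and without EBSS replicate 2 (adjusted p = 0.051 to 0.057). Among 8 p53 branch genes, 3 were higher and 2 lower as deposited, and 7 and 0 after scaling, led by Mdm2 at 1.73 (adjusted p = 9.3e-07) and Cdkn1a at 1.33 (adjusted p = 3.6e-06). Of 10 FoxO branch genes 2 were higher and 3 lower as deposited, and 7 and 0 after scaling, with Txnip, which encodes an inhibitor of glucose uptake, at 2.31 (adjusted p = 1.3e-05) and Irs2, an insulin receptor substrate gene, at 1.67 (adjusted p = 1.1e-07). Of the 8 genes of the hypoxia and glucocorticoid branch, 1 was higher and 6 lower as deposited, and 1 and 5 after scaling, with Hif1a at −2.97 (adjusted p = 8.5e-08).

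Within EBSS, the libraries labelled KO were compared with those labelled wildtype, the same 3 wildtype-labelled libraries as above. Sesn1, Ddit4, Rragc and Flcn were lower and Sesn3 was higher in the libraries labelled KO. The median of all genes lay at 0.91 as deposited and 0.10 after scaling. Sesn1 stood at 14, 15.2 and 14.7 TPM under the KO label, against 37.6, 30.3 and 44.0 TPM under the wildtype label, and it fell by 1.28 ± 0.15 (adjusted p = 8.8e-06), or by 2.20 after scaling. Sesn3 stood at 17, 16.5 and 15.5 TPM under the KO label, against 4.76, 5.68 and 5.87 TPM under the wildtype label. It rose by 1.43 ± 0.13 as deposited (adjusted p = 1.1e-06) and by 0.58 after scaling (adjusted p = 0.00068). Flcn stood at 35.9, 32.2 and 31.0 TPM under the KO label, against 72.2, 78.7 and 60.4 TPM under the wildtype label, and it fell by 1.06 ± 0.10 (adjusted p = 2.2e-06), or by 2.01 after scaling. These 3 genes did not overlap between the labels.

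Rragc and Ddit4 were also lower under the KO label, though replicate 1 sat above its group. Rragc stood at 111, 63.9 and 65.4 TPM under the KO label, against 183, 185 and 164 TPM under the wildtype label (log2 change −1.19 ± 0.17, adjusted p = 5.1e-05; −2.14 after scaling). Ddit4 stood at 132, 105 and 108 TPM under the KO label, against 157, 170 and 163 TPM under the wildtype label (log2 change −0.51 ± 0.10, adjusted p = 0.00059; −1.46 after scaling). The call of Sesn2 depended on the scaling and on replicate 1. It stood at 53.6, 14.2 and 12.7 TPM under the KO label, against 37.0, 44.2 and 34.8 TPM under the wildtype label, with a log2 change of −0.81 ± 0.41 as deposited (adjusted p = 0.083) and −1.75 after scaling (adjusted p = 0.0023). Without that replicate the deposited change was −1.45 (adjusted p = 5.1e-06).

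Eif4ebp1 and Tfeb were called higher in the libraries labelled KO as deposited, and neither was after scaling. Eif4ebp1 stood at 523, 254 and 247 TPM under the KO label, against 168, 192 and 135 TPM under the wildtype label, a log2 change of 0.97 ± 0.24 (adjusted p = 0.0028) that was 0.01 after scaling (adjusted p = 0.97). Tfeb stood at 13.9, 12.7 and 13.8 TPM under the KO label, against 10.8, 10.1 and 6.78 TPM under the wildtype label, a log2 change of 0.53 ± 0.15 (adjusted p = 0.0065) that was −0.36 after scaling (adjusted p = 0.083). Deptor stood at 5.94, 2.25 and 2.21 TPM under the KO label, against 2.75, 2.50 and 1.64 TPM under the wildtype label (adjusted p = 0.23). Rragd stood at 4.99, 1.81 and 1.91 TPM under the KO label, against 1.53, 1.72 and 2.79 TPM under the wildtype label (adjusted p = 0.31). Both low genes overlapped between the labels, and replicate 1 was the highest library for each. In all, 7 of the 10 genes passed as deposited, 3 higher and 4 lower, while 80.5% of all tested genes passed, 71.9% higher and 8.58% lower. After scaling 6 passed, 1 higher and 5 lower, while 63.8% of all genes passed, 34.8% higher and 29% lower. The labels did not overlap for 7 of the 10 genes, against 78.2% of all genes. Of 32 TFEB targets, 10 were higher and 14 lower as deposited, and 3 and 25 after scaling.

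In the libraries labelled KO, EBSS against full medium gave 4 calls among the 10 genes, 3 higher and 1 lower, while 54.2% of all tested genes passed, 33.3% higher and 20.9% lower. After scaling 5 passed, 3 higher and 2 lower, while 52.2% of all genes passed, 26% higher and 26.2% lower. The media did not overlap for 7 of the 10 genes, against 67.9% of all genes. The median of all genes lay at 0.13. Sesn3 rose by 1.06 ± 0.13 (adjusted p = 3.5e-05), with a mean of 16.3 TPM in EBSS, against 7.35 TPM in full medium. Ddit4 rose by 0.90 ± 0.10 (adjusted p = 2.2e-05), with a mean of 115 TPM in EBSS, against 61.3 TPM in full medium. Rragc fell by 1.04 ± 0.17 (adjusted p = 0.00035), with a mean of 80.1 TPM in EBSS, against 160 TPM in full medium. Rragd rose by 1.01 ± 0.27 (adjusted p = 0.0081), with a mean of 2.90 TPM in EBSS, against 0.830 TPM in full medium, and by 0.65 without EBSS replicate 1 (adjusted p = 0.012). Without that replicate Sesn2 and Eif4ebp1 were called lower in EBSS, at −0.77 (adjusted p = 0.00094) and −0.65 (adjusted p = 0.0012), and 6 of the 10 genes passed, against 54.4% of all genes. Flcn, at −0.19 (adjusted p = 0.13; −0.34 after scaling, adjusted p = 0.016), and Tfeb, at −0.28 (adjusted p = 0.13), did not pass on all libraries as deposited, but without replicate 3 labelled wildtype, EBSS they did, with adjusted p-values of 0.039 and 0.011. Sesn1, at 0.22 (adjusted p = 0.23), and Deptor, at 0.52 (adjusted p = 0.12), did not pass. Of 32 TFEB targets, 6 were higher and 16 lower in EBSS, with Neu1 lower by 1.59 (adjusted p = 5.5e-07), Ppargc1a by 1.63 (adjusted p = 2.5e-05) and Gpnmb, which encodes a lysosomal glycoprotein, by 1.27 (adjusted p = 3e-05). This comparison uses the same KO libraries in full medium as the first one.

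Replicate 1 of the group labelled KO, EBSS stood apart in several of these genes. Against the mean of replicates 2 and 3 it was higher by 1.92 for Sesn2, 1.10 for Deptor, 1.07 for Rragd, 1.06 for Eif4ebp1 and 0.77 for Rragc, as differences of log2(TPM + 1). Sesn1, at −0.09, Sesn3, at 0.09, and Tfeb, at 0.07, hardly differed. Of the 10 genes 4 were higher by at least 1, against 3.04% of 12653 tested genes. Of the 8 ATF4 branch genes 7 were higher by at least 1, with a median difference of 2.33. Trib3, which encodes a pseudokinase induced by ATF4, stood at 307 TPM in replicate 1, against 27.1 and 21.0 TPM in the others. Asns, the asparagine synthetase gene, stood at 499 TPM in replicate 1, against 149 and 137 TPM. Ddit3 stood at 1937 TPM in replicate 1, against 249 and 160 TPM. Of the TFEB targets 2 of 32 were higher by at least 1, Sqstm1, the autophagy receptor gene, by 1.73 and Mcoln1, the lysosomal calcium channel gene, by 1.02. Markers of cell types differed as well, with 3 of 10 fibroblast markers lower by at least 1 in replicate 1, against 252 of 12653 tested genes. These were S100a4 at −1.83, Col3a1 at −1.10 and Lum at −1.08, while Pdgfra was the highest of that list, at 0.57. The 4 tested neural markers were divided, with Nes at −1.60 and Sox2 at −0.95, against Tubb3 at 1.56 and Map2 at 0.32. The part of these markers in the differences was not tested. This is 1 library, so no test was made, and the genes were described after their values were seen.

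**Figure D5:**
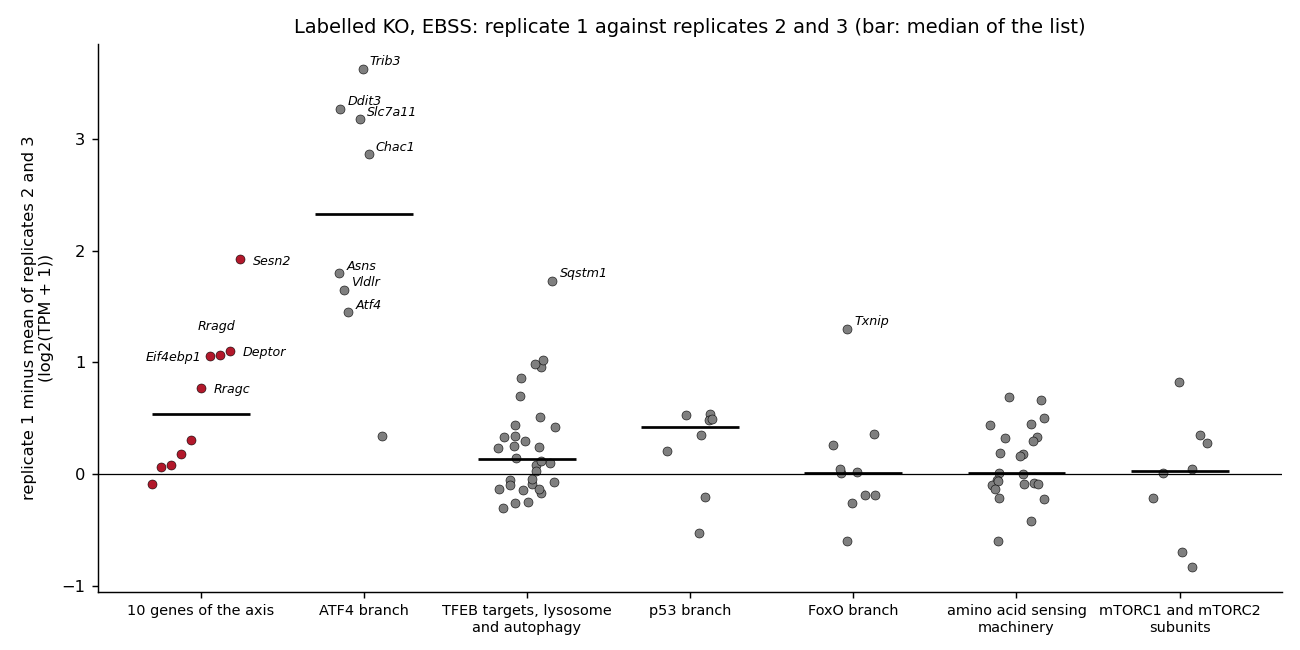
Difference of replicate 1 from the mean of replicates 2 and 3 in the group labelled KO, EBSS, on the log2(TPM + 1) scale, for the 10 genes and 6 other lists. Each point is a gene and each bar the median of a list, which is 2.33 for the ATF4 branch and 0.54 for the 10 genes.

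Because Rbbp5 went against the labels in EBSS as deposited, the groups were also compared across both factors. The libraries labelled KO, EBSS set against wildtype in full medium gave 0 calls by limma among the 10 genes, with 0 at an unadjusted p under 0.05, while 0.134% of all tested genes were called, 0.0869% higher and 0.0474% lower. After scaling the 10 genes again had 0 calls, while 0.111% of all genes were called, 0.079% higher and 0.0316% lower. The libraries did not overlap for 3 of the 10 genes, Sesn1 and Sesn3 lower and Tfeb higher in those labelled KO, EBSS, against 38.4% of all genes. The changes with the largest size were Sesn2 at 0.49 (adjusted p = 0.7) and Rragd at 0.35 (adjusted p = 0.67), and both lay below 0 without EBSS replicate 1. A p above the threshold does not show that the levels were the same. Without replicate 3 labelled wildtype, EBSS the calls over all genes in this comparison were 219, against 17 on all libraries, with 0 among the 10 genes in each. The libraries labelled wildtype, EBSS set against KO in full medium gave 7 calls, 4 higher and 3 lower, while 75.1% of all genes passed, 11.6% higher and 63.5% lower. These groups did not overlap for 8 of the 10 genes, against 75.8% of all genes. After scaling 8 were higher and 0 lower, while 63.1% of all genes passed, 29.5% higher and 33.7% lower. Sesn1 was higher by 1.49 ± 0.15 (adjusted p = 2.9e-06), Ddit4 by 1.41 ± 0.10 (adjusted p = 2.8e-07) and Flcn by 0.87 ± 0.10 (adjusted p = 1.2e-05). Sesn3 was called in opposite directions, at −0.37 as deposited (adjusted p = 0.019) and 0.34 after scaling (adjusted p = 0.017).

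The difference between the labels in the change from full medium to EBSS was tested as an interaction, the change in the libraries labelled KO minus that in those labelled wildtype. Of the 10 genes 6 passed, 2 higher and 4 lower, while 76.7% of all tested genes passed, 64.2% higher and 12.5% lower. After scaling 7 passed, 1 higher and 6 lower, while 66.8% of all genes passed, 34.1% higher and 32.8% lower. Sesn3 gave 2.76 ± 0.18 as deposited (adjusted p = 1.2e-07) and 1.72 after scaling, and Rragc gave −2.34 ± 0.24 as deposited (adjusted p = 3.9e-06) and −3.48 after scaling. These were the largest differences of the 10 genes in each direction as deposited.

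Over all 12 libraries, Sesn3, Sesn2, Rragc and Sesn1 varied the most of the 10 genes, with SDs of log2(TPM + 1) of 0.75, 0.69, 0.65 and 0.62. For each, the 2 genes with the most similar pattern were found among 12057 tested genes, by the root mean square difference of centred log2(TPM + 1) over the 12 libraries, which share scaling and groups. For Sesn3 they were Fchsd2 (0.10) and Zfp382 (0.10). Fchsd2, an endocytosis gene, had TPM values of 12.2, 10.9 and 10.7 with the label KO, EBSS, 3.24 to 3.70 TPM in those labelled wildtype, EBSS, 3.89 to 4.82 TPM in KO full medium and 11.7 to 12.3 TPM in wildtype full medium. Sesn3, too, was lowest in the libraries labelled wildtype, EBSS and in KO full medium. For Sesn2 they were Atp8b3 and Cdk2ap2, both at 0.24. Cdk2ap2 stood at 331 TPM in replicate 1 labelled KO, EBSS, against 111 and 101 TPM in its other replicates. For Rragc they were Mfsd11 (0.15) and Asna1 (0.15), and for Sesn1 Rc3h1 (0.14) and the ribosomal protein gene Rps4x (0.14), which has near-identical pseudogene copies, so its level is uncertain.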

How the data were processed

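The authors deposited 1 table of TPM values for 25117 gene symbols in 12 poly(A) RNA-seq libraries, made with Salmon and the mm10 build, per the submitters' processing notes. Neither its version nor the annotation is given in the sources used here. TPM keeps no depth, so no counting error can be stated. Groups followed the labels. Genes with at least 1 TPM in at least 3 libraries were tested (12653), and 4859 symbols were at 0 in all libraries. Values were taken as log2(TPM + 1) and fitted over 4 groups in limma 3.58.1 (R 4.3.3) with a shared spread and Benjamini-Hochberg adjustment at a threshold of 0.05. The steps were tested on simulated data. Figures used Python 3.11.15, pandas 2.3.3 and matplotlib 3.10.9. Gene positions came from GENCODE on GRCm38. Named were all 10 genes, Rbbp5, up to 3 called genes of a described list with the largest change, a mean of at least 5 TPM in the higher group and no overlap, and 2 genes most like each of the 4 most variable members. Not every gene that meets this rule is reported here, and genes named outside it, markers of cell types among them, were chosen after their values were seen. Members and lists were chosen with earlier results of these data known. Alternatives were pseudocounts of 0.1 and 0.5, other filters, median-of-ratios and quantile scaling, leaving out the 86 ribosomal protein genes, fits on only the compared libraries, a replicate block and leaving out libraries. Leaving out both libraries that stood apart was chosen after seeing the data.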

Additional observations from a re-analysis of the deposited data

Results flagged for a closer look

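For 6 of the 10 genes, and for Rbbp5, the change between EBSS and full medium differed between the labels, by an interaction term in limma with Benjamini-Hochberg adjustment, given here as the change in the libraries labelled KO minus that in those labelled wildtype. The median of all genes lay at 1.06, and 76.7% of all tested genes passed, so passing is not particular to these genes. Sesn3 had the largest positive difference of the 10, at 2.76 (adjusted p = 1.2e-07), with higher values in EBSS under the KO label and lower ones under the wildtype label. Rragc, at −2.34 (adjusted p = 3.9e-06), went the other way. Flcn gave −1.11 (adjusted p = 2.8e-05; −2.24 after median-of-ratios scaling), Sesn1 −0.83 (adjusted p = 0.0031; −1.94 after scaling) and Sesn2 −1.44 (adjusted p = 0.038; −2.54 after scaling). The Sesn2 call was lost in 11 of 21 other settings, 10 of which left out 1 library and 1 of which dropped the filter (adjusted p = 0.052 to 0.093), and the Rragd call below in 12 of 20, with its sign turned in 1 of them. After scaling Ddit4 (−0.90, adjusted p = 2.1e-05) and Tfeb (−1.11, adjusted p = 0.0016) were also called. Rragd gave 0.96 (adjusted p = 0.037), which was 0.14 after median-of-ratios scaling (adjusted p = 0.75). Without replicate 1 labelled KO, EBSS, Sesn2 gave −2.08 (adjusted p = 3.1e-06) and Rragd 0.60 (adjusted p = 0.042). Rbbp5 itself gave 2.52 as deposited (adjusted p = 3.4e-07) and 1.42 after scaling (adjusted p = 1.6e-05). Whether the EBSS labels were exchanged was not tested.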

How the results depend on the processing

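Pseudocounts, filters and the fits on only the compared libraries reversed no result. Median-of-ratios scaling reversed, for labelled KO minus labelled wildtype in EBSS, Deptor (−0.36), Rragd (−0.37) and Tfeb (−0.36). For EBSS minus full medium labelled wildtype it reversed Deptor (0.63), Eif4ebp1 (0.33), Tfeb (0.69), Tfe3 (0.48), Cebpb (0.11) and Zmat3 (0.0488). For labelled wildtype EBSS minus KO full medium it reversed Sesn3 (0.34), and in the interaction Ddit4 (−0.90), Deptor (−0.24) and Eif4ebp1 (−0.77). Quantile normalization reversed Deptor in KO minus wildtype, full medium (0.17), Deptor (−0.67), Rragd (−0.65) and Tfeb (−0.51) between the labels in EBSS, and Deptor (0.94), Tfeb (0.88), Rbbp5 (0.0494), Tfe3 (0.23), Vldlr (0.21) and Zmat3 (0.24) for EBSS minus full medium labelled wildtype. It also reversed Sesn1 for EBSS minus full medium labelled KO (−0.0439), Sesn3 for labelled wildtype EBSS minus KO full medium (0.40), and Ddit4 (−0.23), Deptor (−0.84), Eif4ebp1 (−0.000952) and Rragd (−0.35) in the interaction. Leaving out ribosomal protein genes reversed Deptor (0.23) and Tfeb (0.18) for EBSS minus full medium labelled wildtype, and Ddit4 (−0.23) and Eif4ebp1 (−0.11) in the interaction. The cause of these changes was not tested. Leaving out single libraries, or both that stood apart, gave 4 to 9 of the 10 genes called in KO minus wildtype, full medium (5 on all libraries, 9 on the 6 compared), 7 to 8 between the labels in EBSS, 6 to 7 for EBSS minus full medium labelled wildtype, 4 to 8 labelled KO, 0 for labelled KO EBSS minus wildtype full medium, 5 to 10 for labelled wildtype EBSS minus KO full medium and 4 to 6 in the interaction. Calls over all tested genes moved too. In the same order of comparisons, 55.9%, 80.5%, 81.1%, 54.2%, 0.134%, 75.1% and 76.7% of all tested genes were called on all libraries. Without replicate 1 labelled KO, EBSS these shares were 60.5%, 79.5%, 83%, 54.4%, 0.182%, 78.1% and 77.4%. Over all genes, labelled KO EBSS minus wildtype full medium had 17 calls, against 32 without a filter, 58 under quantile normalization, 249 on the 6 libraries, 7 with a replicate block and 8 to 730 with libraries left out. The highest of these was without both libraries, and 219 were called without labelled wildtype EBSS replicate 3 alone. With libraries left out, the sign turned for these values, given as lowest to highest. Between the labels in EBSS they were Deptor (−0.165 to 0.542) and Rragd (−0.0519 to 0.493), turned without labelled KO EBSS replicate 1. For EBSS minus full medium labelled wildtype they were Deptor (−0.193 to 0.0602) and Rragd (−0.129 to 0.163), turned without EBSS replicate 3. For EBSS minus full medium labelled KO it was Sesn2 (−0.774 to 0.226), turned without EBSS replicate 2 or 3. Against wildtype full medium, leaving out labelled KO EBSS replicate 1 turned Sesn2 (−0.151 to 0.849), Deptor (−0.105 to 0.451), Eif4ebp1 (−0.0544 to 0.484), Rragc (−0.136 to 0.257), Rragd (−0.00359 to 0.542) and Rbbp5 (−0.126 to 0.102). In the interaction Tfeb (−0.264 to 0.0555) turned without labelled wildtype EBSS replicate 1 or 2, and Eif4ebp1 (−0.116 to 0.559) without both libraries that stood apart. Same-numbered libraries did not deviate together, with correlations of −0.0728 to 0.0793 over 18 pairs and 0 over 0.1. Such correlations cannot show whether they shared a culture, day or preparation. With the replicate block, Eif4ebp1 passed in KO minus wildtype, full medium (adjusted p = 0.038), and Rragd missed in the interaction (adjusted p = 0.054).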

Other observations

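Among the 3 Eif4ebp genes, which encode repressors of cap-dependent translation, Eif4ebp3 had its highest share in the libraries labelled wildtype, EBSS. Eif4ebp3 held 5.11% to 6.95% of their summed TPM in the libraries labelled KO, EBSS, 14.4% to 18.2% in those labelled wildtype, EBSS, 5.70% to 6.33% in KO full medium and 4.02% to 5.41% in wildtype full medium. Tfeb held 11.8% to 15.4% of the summed MiT/TFE TPM in the libraries labelled KO, EBSS, 12.3% to 17.2% in those labelled wildtype, EBSS, 23.3% to 26.7% in KO full medium and 12.5% to 13.3% in wildtype full medium. These shares do not depend on scaling between libraries. No test was made of them.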
